A study of Homo sapiens with 6 samples.

Results

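SLC7A11, CHAC1 and the enzymes of glutathione synthesis were followed as a set of 10 genes covering cystine import and the making, breakdown and use of glutathione. The members were SLC7A11, CHAC1, CHAC2, GCLC, GCLM, GSS, GSR, GPX4, CTH and CBS. They were picked by function out of 60107 Ensembl gene IDs, around SLC7A11, which was the only gene to pass an edgeR test between cells with and without glutamine. All 10 had enough reads to be tested, among 22613 tested genes. Because the comparison itself led to the choice of SLC7A11, and CHAC1 was known to differ in these libraries, the members' values in that comparison are given as a description.

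Cells import cystine through a transporter made of SLC7A11 and a heavy chain, in exchange for glutamate, and reduce it to cysteine inside the cell. Glutamate–cysteine ligase joins cysteine to glutamate, glutathione synthetase adds glycine, and the resulting tripeptide is the main soluble antioxidant of the cell. Glutamine is a common source of the glutamate used both for the exchange and for the first synthetic step. CHAC1 and CHAC2 cleave glutathione in the cytosol, while CBS and CTH make cysteine from homocysteine.

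RNA came from H9, an established line of human embryonic stem cells. The cells were harvested at the end of day 9 of a protocol that turns them into nephron progenitor cells, which give rise to the nephrons of the kidney. Both groups were the same line taken through the same protocol: 3 libraries came from complete medium with glutamine and 3 from medium lacking glutamine since the start. No label says whether the 3 libraries of a group were separate cultures, so the errors below measure the spread between libraries, which may be technical. In these bulk samples, fewer cells of a type and less RNA per cell cannot be told apart.

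The libraries held 78220507 to 84746566 counts. The defining nephron progenitor markers were present, all 12 with counts and with a summed level of 984 to 1665 CPM (counts scaled to a common library total) with glutamine and 1543 to 2067 without. POU5F1 had at most 13 counts and NANOG at most 1, with NANOG at 0 in all 3 libraries with glutamine and in replicate 3 without. Replicate 1 with glutamine stood apart from its group. Among the 2078 genes higher by over 1 on the log2 scale without glutamine than in the other 2 libraries with it, replicate 1 lay at a median of 0.84 of the way toward the libraries without glutamine. Each member is therefore given also with that library left out. The 4 endothelial markers (PECAM1, CDH5, KDR, TEK), none of them at 0 in any library, summed to 27.4 to 87.6 CPM with glutamine and to 16.02 to 21.5 without. Most of that sum was KDR, at a mean of 58.8 CPM with and 14.6 without. PECAM1 and CDH5 were also lower without glutamine, whereas TEK was at 1.95 and 2.55 CPM. The 5 pluripotency markers, mostly DPPA4, summed to 120 to 192 CPM with and to 221 to 282 without. The part of these shifts in the values below was not tested.

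The short sequences upstream of 3 members are shown because they hold the letters that stress-responsive factors are known to recognise near genes of this pathway. The C/EBP-ATF response element, bound by ATF4, was searched as TGATGNAA, and the antioxidant response element, bound by NRF2, as TGACNNNGC, on both strands of the 250 bases before each RefSeq start. The promoter table covered 7 of the 10 members. Each line gives 30 bases, 5′ to 3′ on the gene's strand, with the match in capitals.
CHAC1: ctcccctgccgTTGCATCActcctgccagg
GCLM: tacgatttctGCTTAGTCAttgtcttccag
CBS: ccggctctggGCGCGGTCAcgcggggcgct
All 3 matches lie in reverse orientation to the letters searched. The CHAC1 window is at chr15:40953251-40953280 on the plus strand of GRCh38.p14, with its match 209 to 202 bases before the RefSeq start. Exons of 2 GENCODE transcripts (CHAC1-201 and CHAC1-202) overlap this window. The GCLM window is at chr1:93909445-93909474 on the minus strand, with its match 34 to 26 bases before the start. It overlaps an exon of transcript GCLM-204. The CBS window is at chr21:43076441-43076470 on the minus strand and lies in no GENCODE exon of CBS. Of 35116 promoters of this length in the table, 3.14% held TGATGNAA and 10.9% held TGACNNNGC. Counted per gene, with a match in any of its promoters, the shares were 3.89% and 13.2% of 27305 genes. A match to the second is therefore common. CBS had 3 promoters in the table, and 1 of them held the match. A match describes letters, not binding, and nothing was drawn from promoters without one.

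SLC7A11, the cystine-importing chain of the transporter (ENSG00000151012; chromosome 4, 138164097 to 138242349, minus strand, GENCODE 29 on GRCh38), was the member with the smallest p, and its groups lay far apart. Replicates 1, 2 and 3, in that order here and below, read 20.8, 17.9 and 19.0 CPM with glutamine and 45.0, 53.2 and 48.8 without. The highest library with glutamine was far below the lowest without it. The fold was 2.54, a log2 fold change of 1.35 (SE 0.10, 95% interval 1.12 to 1.58), and it was 1.41 (SE 0.09) with replicate 1 with glutamine left out. The edgeR adjusted p that led to its choice was 0.0488, just inside the threshold of 0.05. The next member, CHAC1, ranked 27 by p. Its adjusted p of 0.068 was a value that the adjustment gave to many genes alike. The call of SLC7A11 was lost in 9 of 16 alternatives. The adjusted p was 0.0504 under edgeR's legacy setting, 0.0508 with limma-voom, 0.0665 with upper quartile scaling, 0.0738 with library size only and 0.129 with the replicate block. In edgeR fits without 1 library it was 0.249 and 0.2 without replicate 2 or 3 with glutamine, and 0.259 and 0.211 without replicate 2 or 3 of the other group. Of all tested genes 0.00442% passed. By size the change was less extreme: among 22613 tested genes its p ranked 1 and its log2 fold change 673 from the highest. The coefficient of variation within a group was 7.77% with and 8.39% without glutamine.

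The antisense gene SLC7A11-AS1 shares 865 exonic bases with SLC7A11. Its counts ran from 6 to 12 in the group with glutamine and from 16 to 32 in the other, where SLC7A11 had 1396 to 1691 and 3831 to 4170. Reads of the pair cannot be assigned with certainty where the strand setting is unknown, but the antisense count was small beside the difference between the groups.

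CHAC1, a glutathione-cleaving enzyme induced by the ATF4 branch of the stress response (ENSG00000128965; chromosome 15, 40952962 to 40956519, plus strand), had the largest change of the 10 members. Its level was 3.22, 1.81 and 2.46 CPM with glutamine and 6.78, 10.1 and 8.85 without. No library with glutamine reached any library without it, although values within a group differed more than for SLC7A11. The fold was 3.44, a log2 fold change of 1.78 (SE 0.24, 95% interval 1.21 to 2.35), and 2.01 (SE 0.20) with replicate 1 with glutamine left out. These values rest on 141 to 261 counts with and 583 to 795 without. The coefficient of variation was 28.3% with and 19.8% without glutamine, above that of the other members in both groups.

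CHAC2, the constitutive relative of CHAC1 (ENSG00000143942; chromosome 2, 53767792 to 53775196, plus strand), was also higher without glutamine, by less. It stood at 5.87, 4.87 and 5.12 CPM with glutamine and at 7.45, 8.28 and 8.65 without. The groups did not overlap. The log2 fold change was 0.62 (SE 0.12, 95% interval 0.33 to 0.91), and 0.71 (SE 0.11) with replicate 1 with glutamine left out. Within a library the ratio of CHAC1 to CHAC2 reads was 0.466 ± 0.0894 with glutamine and 1.05 ± 0.160 without (SD, n = 3), and the ranges did not overlap.

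**Figure D1:**
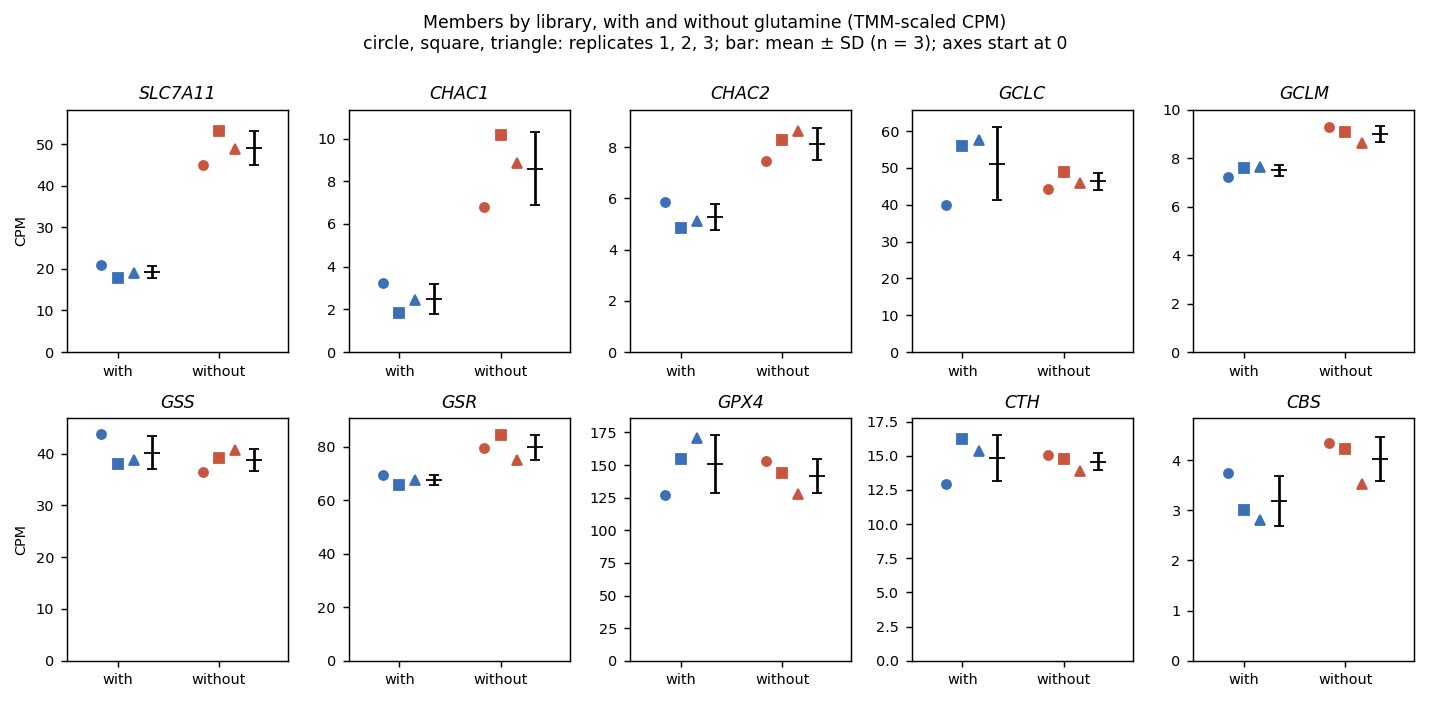
TMM-scaled CPM of the 10 members in each library, with (blue) and without (red) glutamine; circles, squares and triangles are replicates 1, 2 and 3, and the black bar is the mean ± SD of 3. SLC7A11, CHAC1, CHAC2, GCLM and GSR show groups that do not overlap, and for GCLC, GPX4 and CTH replicate 1 with glutamine is the lowest of its group.

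The subunits of glutamate–cysteine ligase, the rate-limiting step of glutathione synthesis, had unlike patterns. GCLC, the catalytic subunit (ENSG00000001084; chromosome 6), stood at 39.8, 56.1 and 57.7 CPM with glutamine and at 44.3, 48.9 and 45.9 without. The libraries without glutamine lay between replicate 1 and the other 2 libraries with it, so the groups overlapped. The log2 fold change was -0.14 (SE 0.14, 95% interval -0.48 to 0.19). With replicate 1 with glutamine left out it was -0.29 (SE 0.07), and it was -0.08 without replicate 2 and -0.05 without replicate 3 with glutamine, so that its size depended on each library of that group.

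GCLM, the modifier subunit, which raises the activity of GCLC (ENSG00000023909; chromosome 1, 93885205 to 93909456, minus strand), stood at 7.23, 7.61 and 7.66 CPM with glutamine and at 9.29, 9.10 and 8.65 without. The groups were apart by a small margin, the lowest library without glutamine reading higher than any with it. The log2 fold change was 0.26 (SE 0.10, 95% interval 0.04 to 0.49), and 0.24 (SE 0.09) with replicate 1 with glutamine left out. The ratio of GCLC to GCLM reads in a library was 5.51, 7.37 and 7.53 with glutamine and 4.77, 5.37 and 5.30 without. Each library without glutamine was below each with it, and replicate 1 with glutamine was the closest to them.

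GSS, glutathione synthetase, which completes the tripeptide, stood at 43.8, 38.0 and 38.8 CPM with glutamine and at 36.6, 39.1 and 40.7 without. The groups overlapped, and the log2 fold change was -0.05 (SE 0.09, 95% interval -0.26 to 0.15). It was 0.02 (SE 0.08) with replicate 1 with glutamine left out, which turns its direction. A difference of the size seen for CHAC2 lies outside the interval.

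Of the members that use or recycle glutathione, GSR was higher without glutamine and GPX4 overlapped. GSR, which reduces oxidised glutathione with NADPH, stood at 69.3, 65.7 and 67.7 CPM with glutamine and at 79.7, 84.5 and 75.2 without. The groups did not overlap, with a log2 fold change of 0.24 (SE 0.07, 95% interval 0.07 to 0.41) and 0.26 (SE 0.07) with replicate 1 with glutamine left out. GPX4, the selenium-containing peroxidase that removes lipid peroxides and restrains ferroptosis, stood at 127, 155 and 171 CPM with glutamine and at 153, 144 and 128 without. The range with glutamine contained every library without it, and the log2 fold change was -0.09 (SE 0.12, 95% interval -0.38 to 0.20). It was -0.20 (SE 0.09) with replicate 1 with glutamine left out.

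The enzymes that make cysteine from homocysteine showed no separation. CTH, which releases cysteine from cystathionine, stood at 12.9, 16.2 and 15.3 CPM with glutamine and at 15.1, 14.8 and 13.9 without. Its log2 fold change was -0.03 (SE 0.11, 95% interval -0.29 to 0.24), and -0.11 (SE 0.08) with replicate 1 with glutamine left out. CBS, which makes cystathionine, stood at 3.75, 3.01 and 2.80 CPM with glutamine and at 4.35, 4.21 and 3.53 without. Replicate 1 with glutamine was above the lowest library without, so the groups overlapped, at a log2 fold change of 0.34 (SE 0.16, 95% interval -0.05 to 0.73). With that library left out it was 0.48 (SE 0.14).

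The count of CBS is uncertain, because GRCh38 carries a near-identical copy, CBSL, elsewhere on chromosome 21. CBSL had 289, 183 and 167 counts with glutamine and 356, 327 and 283 without, beside 304, 235 and 220 and 374, 330 and 277 for CBS. The copies thus held similar numbers of reads. Summed, the copies read 7.31, 5.35 and 4.92 CPM with glutamine and 8.49, 8.38 and 7.13 without, a log2 fold change of 0.45 (SE 0.17). Replicate 1 with glutamine still lay above replicate 3 without.

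**Figure D2:**
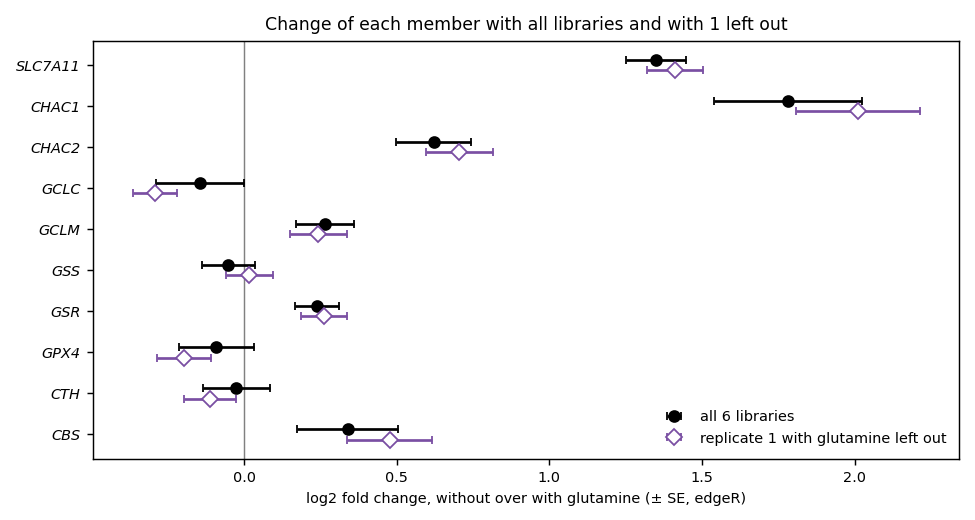
Log2 fold change of each member, without over with glutamine, ± SE, from edgeR with all 6 libraries (black) and with replicate 1 with glutamine left out (open purple). CHAC1 and SLC7A11 stand farthest from 0 in both fits, GCLC goes from -0.14 to -0.29, and GSS lies on either side of 0.

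Counted over the set, 5 of the 10 members were higher without glutamine with no overlap between groups, none was lower, and 5 overlapped. Of all tested genes 17.3% were higher and 16.9% lower in that way, and since the members were chosen with this comparison known nothing is read from the count. With replicate 1 with glutamine left out edgeR called 5 members higher (SLC7A11, CHAC1, CHAC2, GSR and CBS) and 1 lower (GCLC), against 22.3% and 19% of all genes then tested. The members' median log2 fold change was 0.25, that of all tested genes 0.001. The members' median includes SLC7A11 and CHAC1, known beforehand to differ, so nothing is read from it either. The position of replicate 1 with glutamine varied among the members. It is given as a description, since a small p over all 6 libraries already requires that library to lie near its own group. For SLC7A11, CHAC1, CHAC2, GSR and GCLM it lay at 0.13, 0.30, 0.33, 0.21 and -0.32 of the way toward the libraries without glutamine. The median was 0.80 over the 7536 tested genes higher there by over 0.2 on the log2 scale. CBS was at 0.79, and GCLC and GPX4, both lower without glutamine on that axis, were at 1.73 and 1.75, beyond the other group, where the median of the 7086 lower genes was 0.65.

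Levels of different members were compared per length, as CPM per kilobase of exon. GPX4 was the most abundant at 74.7 ± 10.96 with glutamine and 70.1 ± 6.47 without (SD, n = 3), followed by GSR at 18.0 ± 0.475 and 21.2 ± 1.24. With glutamine GSS (6.51), CTH (6.15) and GCLC (5.92) followed, and neighbours among these 3 overlapped. Below them came CHAC2 (3.999), SLC7A11 (2.00), GCLM (1.38), CHAC1 (1.21) and CBS (0.469), where only GCLM and CHAC1 overlapped as neighbours. Without glutamine CHAC2 (6.15) lay among GSS (6.29) and CTH (6.04), and SLC7A11 (5.08) overlapped with GCLC (5.36) above it and CHAC1 (4.17) below it. GCLM (1.66) and CBS (0.594) were last and overlapped with no neighbour. With the mean transcript length in place of all exons, GPX4, GSR and GSS stayed the first 3 in both groups, but GCLC and GSS moved to 26.2 and 29.9 from 5.64 and 6.40 over all libraries, so the order below GSR is not firm.

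**Figure D3:**
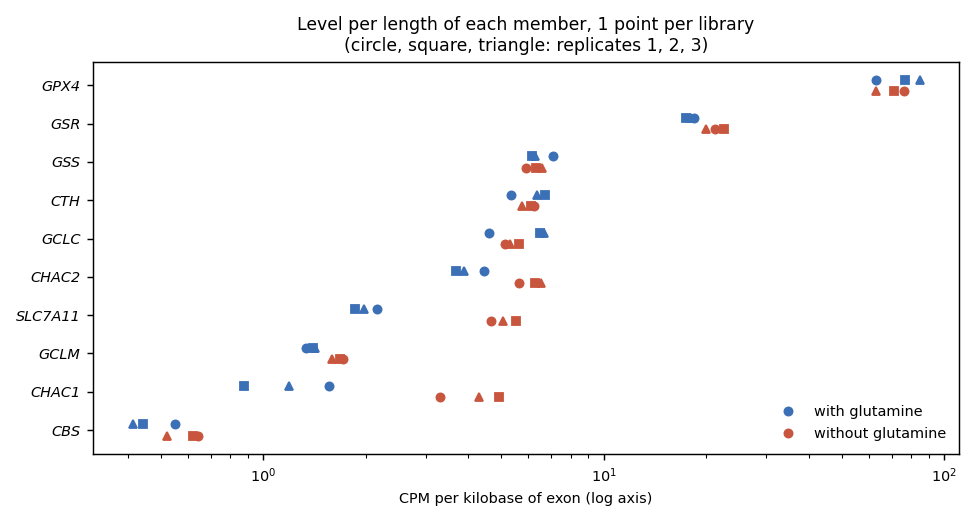
CPM per kilobase of exon of each member on a log axis, 1 point per library, with (blue) and without (red) glutamine, ordered by the mean with glutamine. GPX4 and GSR stand above the rest, and SLC7A11 lies below every GCLC library with glutamine and overlaps with GCLC without it. That overlap depends on the length used: by mean transcript length the means without glutamine were 9.4 for SLC7A11 and 24.9 for GCLC.

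Around these members, 9 lists of 123 related genes were examined, of which 113 were tested. With edgeR 0 of them passed an adjusted p of 0.05. At an unadjusted p under 0.05 there were 22 higher and 15 lower, against 14.7% higher and 15% lower of all tested genes. DESeq2 called 12 higher and 3 lower, against 7.54% and 6.44% of the genes to which it gave an adjusted p. The groups did not overlap for 25 higher and 22 lower genes, against 17.3% higher and 16.9% lower of all tested genes. The same shares of all genes apply to the counts of each list below. The median log2 fold change of the list genes was 0.08. With replicate 1 with glutamine left out edgeR called 32 higher and 18 lower, against 22.3% and 19% of all genes then tested.

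Among the transporters of cystine, cysteine and related amino acids, SLC3A2, SLC1A4 and SLC1A5 were higher without glutamine, each with no overlap between groups. Of 9 genes tested, 0 passed with edgeR, 3 were higher and 1 lower at an unadjusted p under 0.05, and DESeq2 called 3 higher and 0 lower. SLC3A2, the heavy chain that brings SLC7A11 to the membrane, stood at 94.7, 92.5 and 97.7 CPM with glutamine and at 118, 145 and 126 without. The log2 fold change was 0.45 (SE 0.09), beside 1.35 for SLC7A11. SLC3A2 also pairs with other light chains. Within a library the ratio of SLC7A11 to SLC3A2 reads was 0.220, 0.193 and 0.195 with and 0.382, 0.367 and 0.386 without. SLC1A4, a carrier of alanine, serine and cysteine, had a log2 fold change of 1.21 (SE 0.21), from 10.3 ± 2.08 to 23.9 ± 5.56 CPM (SD, n = 3). SLC1A5, a main importer of glutamine, had one of 0.36 (SE 0.08), from 77.2 ± 6.63 to 99.0 ± 4.05 CPM (SD, n = 3). The lysosomal cystine exporter CTNS, named after its values were seen, was at 17.7 ± 0.696 and 17.5 ± 1.07 CPM (SD, n = 3).

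Genes that regulate SLC7A11 or CHAC1 were mixed. Of 10 tested, 0 passed with edgeR, 3 were higher and 1 lower at an unadjusted p under 0.05, and DESeq2 called 3, all higher. ATF4, the transcription factor translated when amino acids run short, stood at 158, 153 and 167 CPM with glutamine and at 181, 211 and 210 without. The groups did not overlap, at a log2 fold change of 0.33 (SE 0.08). CEBPB, a partner of ATF4, was at 3.52 ± 0.487 CPM with and 6.12 ± 1.19 without (SD, n = 3). The log2 fold change was 0.80 (SE 0.18) without overlap. BACH1, a repressor at antioxidant response elements, had a log2 fold change of -0.35 (SE 0.12), but replicate 1 with glutamine, at 110 CPM, lay beside the libraries without (103 to 109). Of regulators named after their values were seen, NFE2L2, which encodes NRF2, had a log2 fold change of 0.52 (SE 0.16) with overlapping groups. DDIT3, ATF3 and TRIB3, genes of the ATF4 response, were at 0.02 (SE 0.14), 0.06 (SE 0.35) and -0.15 (SE 0.32), all with overlap. For these 3 no difference was detectable over the spread of these libraries. They are only a part of the ATF4 response. CHAC1, also induced by it, was at 1.78 (SE 0.24) without overlap, and its genes outside the members and lists were not examined.

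**Figure D4:**
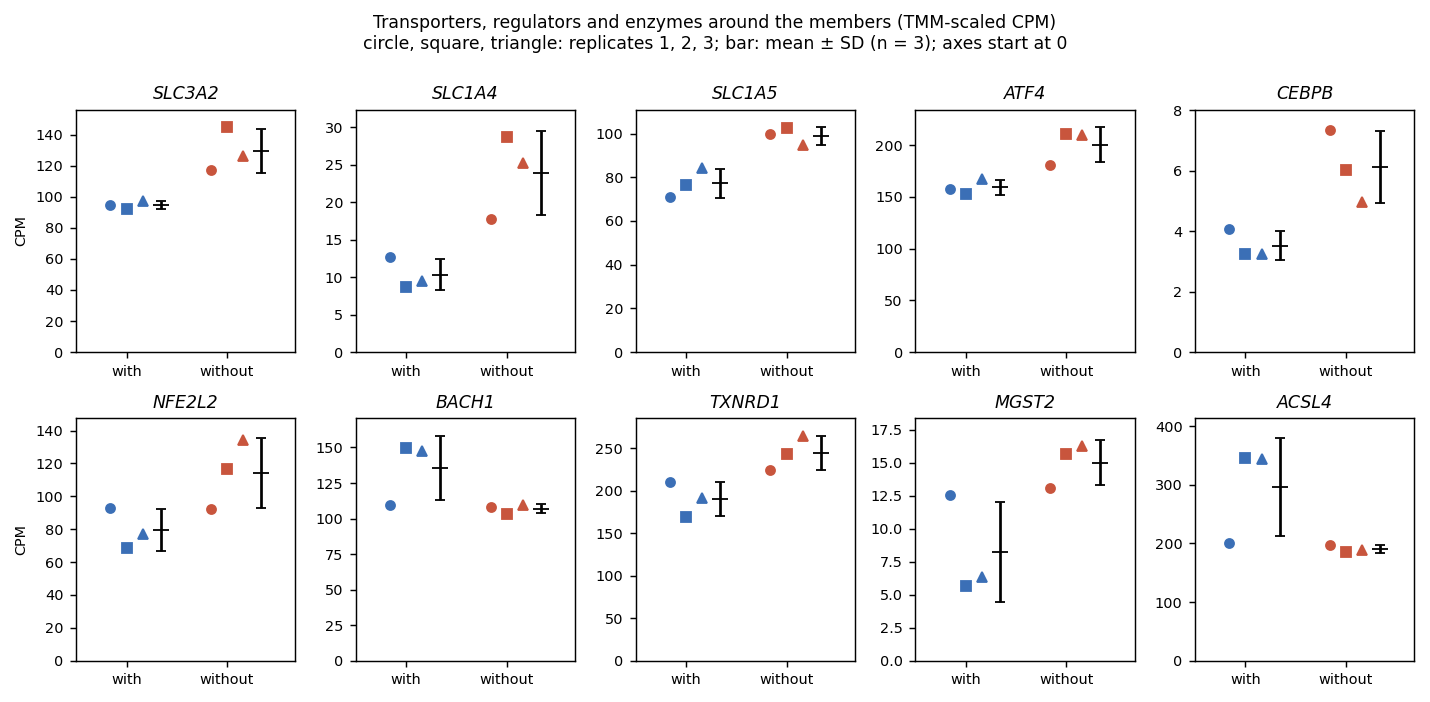
TMM-scaled CPM of 10 transporters, regulators and enzymes related to the members, drawn as for the members, with the mean ± SD of 3 in black. SLC3A2, SLC1A4, SLC1A5, ATF4 and CEBPB show groups that do not overlap, while for BACH1 and ACSL4 replicate 1 with glutamine lies beside the libraries without glutamine.

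The next lists covered glutathione breakdown outside the cell, the methionine cycle and cysteine breakdown. In the gamma-glutamyl and transport list 2 of 13 genes were higher and 2 lower at an unadjusted p under 0.05, 0 passed with edgeR and DESeq2 called 1. That gene was ANPEP, an aminopeptidase that can split the dipeptide left from glutathione, at 1.01, 3.71 and 2.60 CPM with glutamine and 0.465, 0.306 and 0.420 without. Its log2 fold change was -2.60 (SE 0.52), the same direction as KDR, PECAM1 and CDH5 but not TEK among the endothelial markers above, and their part in it was not tested. GGCT, which acts on gamma-glutamyl amino acids, was at 48.1 ± 3.76 and 56.0 ± 2.06 CPM (SD, n = 3), and SLC25A40, a mitochondrial carrier linked to glutathione, at 48.0 ± 2.54 and 54.8 ± 1.37. In the methionine cycle list 0 of 10 genes passed with edgeR, 0 reached an unadjusted p of 0.05 and DESeq2 called 0, although 2 were higher and 2 lower without overlap. The largest of these 4 by log2 fold change were MAT1A at 0.44 (SE 0.22), GNMT at 0.38 (SE 0.24) and AHCYL1 at -0.13 (SE 0.06). In the cysteine breakdown list 0 of 9 passed with edgeR or DESeq2, while 1 was higher and 1 lower at an unadjusted p under 0.05. The lower 1 was SUOX, sulfite oxidase, at 38.3 ± 1.25 CPM with and 30.9 ± 3.10 without (SD, n = 3). The higher 1 was TST, a sulfurtransferase, at 16.3 ± 1.17 and 19.0 ± 0.660 CPM (SD, n = 3).

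Glutathione transferases attach glutathione to other molecules. Of 21 tested, 0 passed with edgeR, and 5 were higher and 5 lower at an unadjusted p under 0.05. Of all tested genes 14.7% were higher and 15% lower at that p. DESeq2 called 2 transferases higher and 1 lower, against 7.54% and 6.44% of the genes to which it gave an adjusted p. The lower 1 was GSTM2, a cytosolic transferase of the mu class, at 33.6, 29.9 and 25.8 CPM with glutamine and 20.5, 21.9 and 22.3 without, a log2 fold change of -0.47 (SE 0.11). The mu class members GSTM1, GSTM3 and GSTM4, named after their values were seen, were at -0.30 (SE 0.12), -0.25 (SE 0.11) and -0.21 (SE 0.10), each without overlap between groups. Their sequences are alike, so reads may be shared among them. MGST2, a membrane-bound transferase, was at 12.6, 5.70 and 6.36 CPM with and 13.1, 15.7 and 16.3 without, with replicate 1 with glutamine close to the other group. Its log2 fold change was 0.87 (SE 0.29), and 1.32 with that library left out, a move of over 1.5 times on that scale. PTGES, a prostaglandin E synthase of the same superfamily as the membrane-bound transferases, had a log2 fold change of -0.46 (SE 0.19). In the list of peroxidases and glutaredoxins 0 of 11 passed with edgeR or DESeq2, and 1 was higher (GLRX5, 0.19, SE 0.08) and 1 lower (GLRX, -0.50, SE 0.17) at an unadjusted p under 0.05.

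Selenoprotein synthesis, on which GPX4 depends, and ferroptosis genes were also mixed. Of 12 selenoprotein genes 0 passed with edgeR, 3 were higher and 3 lower at an unadjusted p under 0.05, and DESeq2 called 3 higher. SEPHS1, a selenophosphate synthetase homologue, was at 134 ± 12.9 and 171 ± 5.74 CPM (SD, n = 3), and TXNRD1, a selenoprotein that can reduce cystine, at 190 ± 20.4 and 244 ± 19.9. PSTK, a kinase that acts on the selenocysteine tRNA, was lower, at 11.3 ± 1.33 and 9.22 ± 0.035 CPM (SD, n = 3). Of 18 ferroptosis genes 0 passed with edgeR, 4 were higher and 1 lower at an unadjusted p under 0.05, and DESeq2 called 1 in each direction. ACSL4, which loads polyunsaturated fatty acids into lipids and sensitises cells to ferroptosis, was at 200, 346 and 344 CPM with glutamine and 198, 186 and 188 without. Its log2 fold change of -0.64 (SE 0.20) came from replicates 2 and 3 with glutamine, since replicate 1 lay next to the group without. GCH1, which starts the synthesis of the antioxidant tetrahydrobiopterin, was at 14.0, 2.63 and 2.89 CPM with and 20.4, 23.1 and 19.9 without, a log2 fold change of 1.70 (SE 0.60) and 2.94 with replicate 1 with glutamine left out. SAT1, a polyamine-acetylating enzyme and the higher gene that DESeq2 called, was at 122, 77.9 and 81.3 CPM with and 126, 149 and 131 without, a log2 fold change of 0.53 (SE 0.18).

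**Figure D5:**
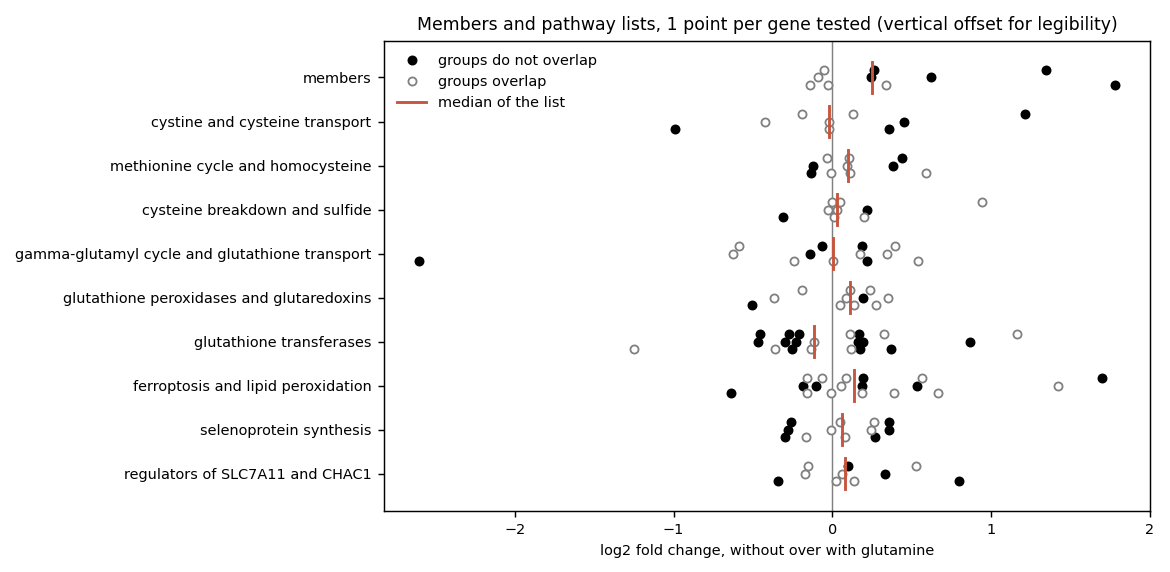
Log2 fold change, without over with glutamine, of the 10 members and of the tested genes of the 9 related lists, 1 point per gene; filled points are genes whose groups do not overlap and the vertical bar is the list's median. The medians of the related lists lie between -0.11 and 0.14, and that of the members at 0.25. The members include SLC7A11 and CHAC1, known beforehand to differ, so the medians are not compared.

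The genes whose pattern over the 6 libraries was most like that of SLC7A11 and of CHAC1 were found among 16880 others with a mean of at least 50 counts. Likeness was the root mean square difference of log2 CPM after each gene was centred on its own mean, which favours genes with a similar change between the groups. For SLC7A11 they were SP6, a transcription factor (0.12), COL4A1, a basement membrane collagen chain (0.15), ADCY8, an adenylyl cyclase (0.16), the noncoding gene AC005674.2 (0.16) and SLC35F3 (0.17). Their Pearson's r with SLC7A11 ran from 0.973 to 0.988 over 6 libraries, which mainly reflects the shared difference between groups. For CHAC1 they were AGTR1, an angiotensin receptor (0.15), ARSJ, an arylsulfatase (0.16), BDNF, a neurotrophin (0.16), RIPPLY1, a transcriptional repressor (0.17) and CALHM5 (0.18), with r of 0.984 to 0.989. SP6 was at 8.29, 6.96 and 6.59 CPM with glutamine and 17.0, 17.8 and 15.5 without, and BDNF at 3.43, 1.79 and 1.95 with and 6.92, 9.67 and 10.1 without. None of these 10 genes was a member or on the related lists.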

How the data were processed

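The authors deposited raw counts per Ensembl gene, 1 column per library, for 6 mRNA libraries, 3 per group. Per the submitters' processing notes the build was GRCh38, and cutadapt, Trim Galore, FastQC, STAR 2.5.2b and DESeq2 were used. The counting program, annotation and strand setting are not given in the sources used here. Columns headed day 0 are libraries with glutamine and those headed day 9 libraries without, per the labels' descriptions, and every direction rests on that.

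The test was edgeR's (version 4.0.16, in R 4.3.3) quasi-likelihood one, with filterByExpr, TMM, robust = FALSE, legacy = FALSE and Benjamini-Hochberg adjustment over 22613 genes at 0.05. The SE is the absolute log2 fold change divided by the square root of F. Log2 CPM used a prior count of 2. DESeq2 1.42.0 and limma 3.58.1 gave alternatives. Symbols and positions came from GENCODE 29 (56531 IDs matched) and promoters from RefSeq.

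The members and lists were chosen with earlier results of these data known. All members are named. List genes are named where they pass the test, or are among the 3 largest changes of their list without overlap and with at least 50 counts in the higher group.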

Additional observations from a re-analysis of the deposited data

How the results depend on the processing

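The count of 1 called gene was 1 with DESeq2 size factors in edgeR, with a mean of at least 10 counts and with the robust setting. It was 0 under upper quartile scaling, library size only, limma-voom and edgeR's legacy setting, 2 with no filter, and 3041 with DESeq2. Leaving out 1 library gave 0 to 9573, the highest without replicate 1 with glutamine, then 17 without replicate 1 of the group lacking it. With the replicate block 0 were called. Deviations of same-numbered libraries correlated at -0.021, 0 and 0.028. Each deviation was from its group's mean, which replicate 1 with glutamine moved, so these values cannot show whether the number pairs libraries. The cause of the differences between settings was not tested. Of 160 values of the members' log2 fold changes, 4 reversed, 7 passed the threshold that had not with all libraries, 9 (all SLC7A11) no longer did, and 140 kept their call and direction, though not always their size: GCLC ran from -0.29 to -0.05. SLC7A11 ran from 1.29 to 1.41 over 16 alternatives and was called in 7. CHAC1 ran from 1.59 to 2.01 and CHAC2 from 0.56 to 0.71, each called in 2: DESeq2 and without replicate 1 with glutamine. With 1 library left out GSS ran from -0.0984 to 0.0176, GPX4 from -0.1972 to 0.0057 and CTH from -0.112 to 0.0359, and the reversals were GSS without replicate 1, CTH without replicate 2 and GPX4 without replicate 3 with glutamine, and CTH (0.0065) without replicate 3 of the other group. CHAC1 with glutamine and CBS had the fewest counts of the members, 141 to 374. The SEs of CHAC1 and CBS were the largest, at 0.24 and 0.16. GCLC, with 3233 to 4534 counts, had an SE of 0.14.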
